A study of Mus musculus with 11 samples.

Results

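The genes described here are 10 regulators of mTORC1, the kinase complex that ties cell growth to amino acids. They were chosen by name, with no measured value in the rule, though earlier results of these data were known. They are Mtor and Rptor of the kinase complex itself, the Rag GTPase genes Rragc and Rragd, Flcn, the GATOR1 genes Depdc5, Nprl2 and Nprl3, and the TSC genes Tsc1 and Tsc2. All 10 were found by symbol among 55416 gene identifiers, and 9 of them were among the 12909 genes whose normalized count averaged 10 or more, which were tested. Rragd fell short of that level and was not tested. EC4, a cell line from a mouse liver cancer, was kept for 24 h in DMEM with either 10 or 200 µM methionine, the higher dose being that of its growth medium, and its polyadenylated RNA was sequenced. At 10 µM, 3 libraries came from MYC high cells and 3 from MYC low cells. At 200 µM, 2 came from MYC high cells and 3 from MYC low cells. The genotype labels read MYC on for the high libraries and MYC off for the low ones. All groups share this single line, and nothing in the labels says that the libraries of a group came from separate cultures. The p-values therefore measure the spread between libraries, which may be technical. The first replicate of the MYC high group at 200 µM is not analysed here.

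mTORC1 is switched on at the lysosome surface, where a Rag GTPase heterodimer (RagA or RagB paired with RagC or RagD) recruits it and the small GTPase Rheb activates it. GATOR1, made of DEPDC5, NPRL2 and NPRL3, inactivates RagA and RagB when amino acids are scarce. Folliculin, the product of Flcn, acts with FNIP1 or FNIP2 on RagC and RagD, and the TSC complex keeps Rheb inactive. Methionine reaches this circuit through its product S-adenosylmethionine, which is bound by the sensor SAMTOR. The pathway acts mostly through proteins and their location, and the data here are transcript levels only.

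The promoters of Flcn, Depdc5 and Rragc, the members with the largest methionine differences in MYC high cells, are printed from RefSeq with the build GRCm38.p6, 5′ to 3′ on the strand of the gene, from 250 bases before to 50 bases after its annotated start. Flcn lies at chr11:59809990-59810289 on the minus strand, Depdc5 at chr5:32863471-32863770 on the plus strand and Rragc at chr4:123917183-123917482 on the plus strand. Capitals mark the E-box CACGTG, the core letters bound by MYC and by the MiT/TFE factors.
Flcn: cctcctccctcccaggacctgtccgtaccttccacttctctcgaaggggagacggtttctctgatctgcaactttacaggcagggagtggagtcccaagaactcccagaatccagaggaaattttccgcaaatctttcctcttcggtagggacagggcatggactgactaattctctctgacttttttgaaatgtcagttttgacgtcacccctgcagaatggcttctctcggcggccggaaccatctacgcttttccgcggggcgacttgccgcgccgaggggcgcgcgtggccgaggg
Depdc5: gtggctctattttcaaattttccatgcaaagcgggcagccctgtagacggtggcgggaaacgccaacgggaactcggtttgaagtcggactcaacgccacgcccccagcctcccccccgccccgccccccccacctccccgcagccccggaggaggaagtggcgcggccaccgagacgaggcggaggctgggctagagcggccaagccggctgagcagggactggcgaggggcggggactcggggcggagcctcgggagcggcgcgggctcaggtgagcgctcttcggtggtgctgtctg
Rragc: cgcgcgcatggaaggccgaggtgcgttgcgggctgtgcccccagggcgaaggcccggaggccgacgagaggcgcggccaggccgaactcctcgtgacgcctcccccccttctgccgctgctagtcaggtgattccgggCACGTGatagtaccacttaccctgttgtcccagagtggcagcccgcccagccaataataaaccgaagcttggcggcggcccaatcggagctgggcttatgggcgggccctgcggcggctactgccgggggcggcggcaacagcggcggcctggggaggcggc
These 3 windows, and those of the 7 other members, were searched on both strands for CACGTG, for the longer TCACGTGA that contains it, and for TGATGNAA, the core of the amino acid response element bound by ATF4. The only match was the CACGTG of Rragc, 112 bases upstream of its start. Over 32851 mouse promoters of the same length, 7.15% held CACGTG, 0.974% held TCACGTGA and 3.97% held TGATGNAA. A match describes the letters of these windows and nothing more.

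Library totals ran between 10858936 and 13085689 gene reads, and the values were deposited as normalized counts, that is, reads divided by 1 size factor per library. Such values are relative to the other genes of a library. Where cells are said to hold more or less of a transcript, this is not an amount per cell. Per kilobase of the longest annotated transcript, Rragc stood highest among the members, at a mean of 699.3 normalized counts per kb over the 11 libraries. It was followed by Flcn at 243.1, Nprl3 at 200.5, Rptor at 164.9, Tsc1 at 110.4, Nprl2 at 96.97, Mtor at 89.03, Tsc2 at 79.97 and Depdc5 at 39.63 per kb. Rragd was at 0.4873 per kb. At 200 µM mouse Myc averaged 2089 ± 106 normalized counts in MYC high cells, against 1136 ± 31.3 in the MYC low ones (SD, n = 2 and 3). At 10 µM it averaged 336 ± 39.2 in MYC high and 336 ± 13.5 in MYC low libraries (SD, n = 3 each, limma adjusted p = 0.949). The switchable MYC transgene known for this line is human, and a table of mouse genes has no row for it, so in both media the MYC state rests on the labels. Of 8 hepatocyte markers none passed the level for testing and Alb, Serpina1a, Fgb, Cyp2e1 and Cps1 were at 0 in all libraries, and the other 3 averaged under 1 normalized count. Of 4 epithelial markers, the keratins Krt8 and Krt18 averaged 8152 and 5382, Epcam was at 0 and Cdh1 averaged 0.0921. The epithelial sum was 11939 to 12441 in MYC high libraries, against 20705 to 21313 in the MYC low ones at 10 µM, and 8431 to 8824 in MYC high libraries, against 10598 to 10783 in the MYC low ones at 200 µM. Of 6 macrophage markers Cd68, Csf1r and Cd14 passed, Ptprc was at 0, Adgre1 and Lyz2 averaged 0.0880 and 0.495, and the summed level of the 6 was at 10 µM 1061 to 1133 in MYC high libraries, against 1302 to 1413 in the MYC low ones. At 200 µM the macrophage sum was 644 to 674.1 in MYC high libraries, against 919.4 to 963 in the MYC low ones. In bulk RNA, fewer cells of a type and less RNA per cell cannot be told apart, and the part of this in any result was not tested.

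The clearest methionine responses among the members were opposite in sign. In MYC high cells Flcn fell 1.98-fold at 10 µM and Depdc5 rose 1.94-fold, while Nprl3 and Rptor rose and Rragc fell by less. Flcn and Depdc5 moved the same way by smaller amounts in MYC low cells, where Nprl3 rose and Rptor fell. All calls were made with limma on log2 of the normalized count plus 1, with Benjamini-Hochberg adjusted p under 0.05 over all tested genes, and the 95% intervals given are not adjusted. Of the 9 tested members, 3 rose in MYC high cells, 2 fell and 4 did not pass, beside 75.8% of all genes called, 37.9% higher and 37.9% lower. The counts in MYC low cells were 2 that rose, 2 that fell and 5 not passed, beside 59.4% of all genes called, 29.4% higher and 29.9% lower. The median log2 difference of the 9 members was 0.04 in MYC high cells and 0.07 in the MYC low ones, beside -0.0039 and 0.0011 over all genes. The size factors themselves place the all-gene median near 0. The called share of the members lay below that of all genes in both MYC states, a difference that was not tested. Called in both MYC states were 4 of 9 members, 3 of them in the same direction. Of all genes 50% were called in both, 86.5% of these in the same direction. None of the 9 tested members reached a 2-fold difference, whereas 22.1% of all genes were called and at least 2-fold apart in MYC high cells and 5.56% in MYC low cells.

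**Figure D1:**
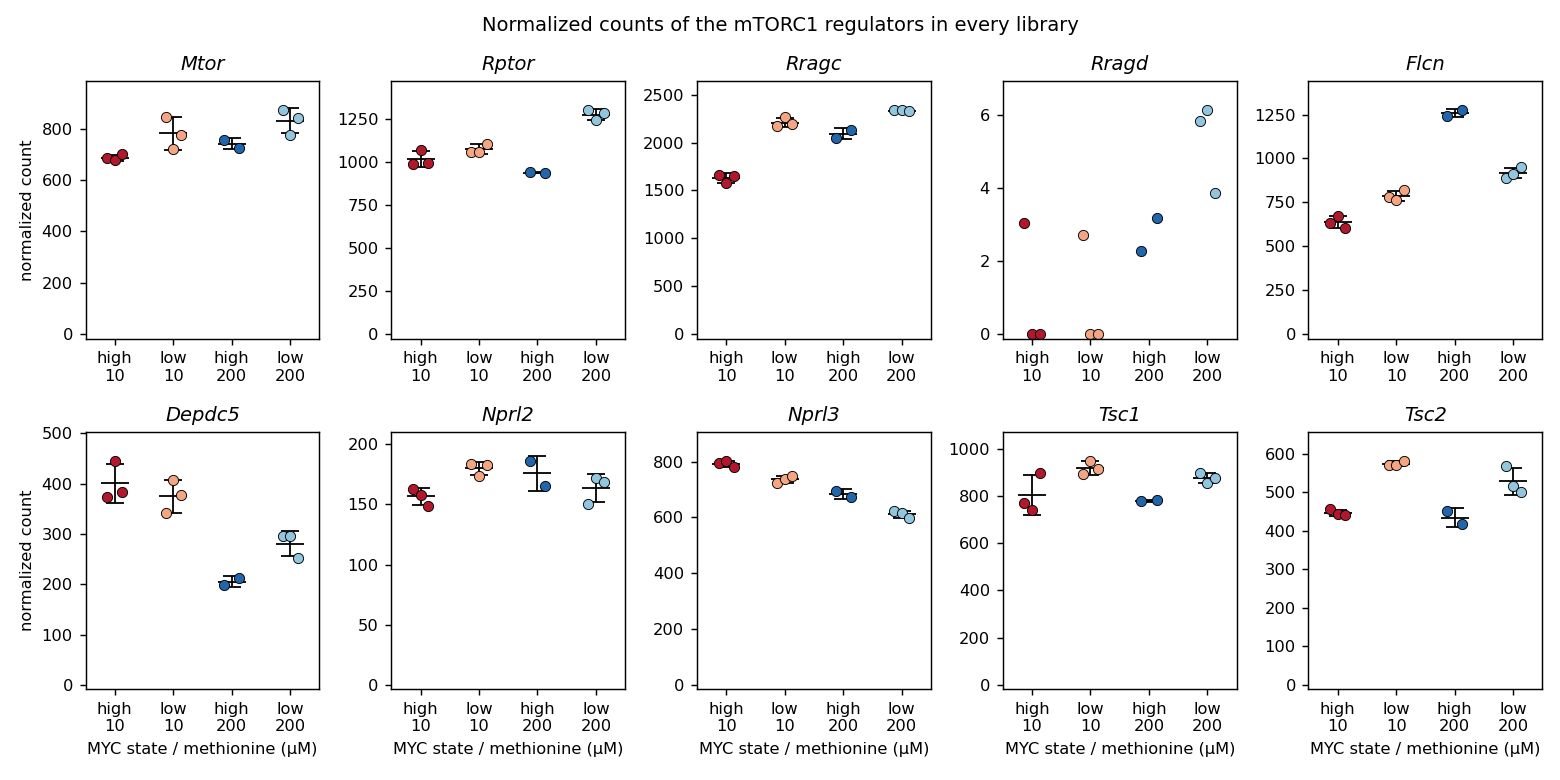
Normalized counts (y axis, linear from 0, scaled per gene) of the 10 regulators in every library, by MYC state and methionine dose in µM (x axis). Points are libraries, and bars are group means with SD (n = 3, or 2 for MYC high at 200 µM; none drawn for Rragd, whose libraries hold 0 to 6 reads). Flcn stood highest in MYC high cells at 200 µM, at 1241 and 1275, and Depdc5 lowest there, at 198 and 213.

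Rptor encodes raptor, the scaffold that brings substrates to the kinase. MYC high libraries held 987, 1070 and 993 normalized counts at 10 µM, against 939 and 934 at 200 µM. MYC low libraries held 1055, 1058 and 1106 at 10 µM, against 1300, 1241 and 1281 at 200 µM. The MYC low libraries at 200 µM thus stood above all others, and no pair of groups within a MYC state overlapped. Rptor rose by a log2 difference of 0.12 in MYC high cells (SE 0.0496, adjusted p = 0.0308) and fell by 0.25 in MYC low cells (SE 0.0443, adjusted p = 8.73e-06). The difference between these responses, tested as the interaction of MYC state and methionine, was 0.37 (SE 0.0665, adjusted p = 1.18e-05). The rise in MYC high cells no longer passed without replicate 2 or replicate 3 of MYC high cells at 200 µM (adjusted p = 0.0796 and 0.104) or without replicate 2 at 10 µM (adjusted p = 0.148). It also missed the threshold with DESeq2 (adjusted p = 0.0774), with no filter on low values (0.0503) and when only the groups compared were fitted (0.0639).

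At 200 µM MYC high libraries held less Rptor than the MYC low ones, by a log2 difference of -0.44 (SE 0.0496, adjusted p = 3.91e-10). At 10 µM the difference was -0.08 (95% interval -0.17 to 0.01, adjusted p = 0.115), which passed without replicate 2 of MYC high cells at 10 µM (adjusted p = 0.0264) and with scaling by total reads (0.00639). On the opposite strand Rptoros covers 0.62% of the exon bases of Rptor in the GENCODE annotation, and averaged 46.9 normalized counts.

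Mtor, the kinase, passed for MYC state in both media and for methionine in neither state. Its libraries held 686, 677 and 701 normalized counts in MYC high cells, against 848, 720 and 778 in MYC low cells at 10 µM. At 200 µM they held 756 and 727 in MYC high cells, against 873, 778 and 844 in MYC low cells. Within each medium every MYC high library lay below every MYC low library. The log2 difference between MYC high and MYC low cells was -0.18 at 10 µM (SE 0.0553, adjusted p = 0.0038) and -0.16 at 200 µM (SE 0.0618, adjusted p = 0.0173). The first call was lost without replicate 1 of MYC low cells at 10 µM (adjusted p = 0.068). The second was lost without replicate 3 of MYC high cells (0.124) or replicate 1 of MYC low cells (0.0888) at 200 µM, without the trend (0.069) and with DESeq2 (0.0535). Between 10 and 200 µM, Mtor differed by -0.11 in MYC high cells (95% interval -0.23 to 0.02) and by -0.09 in MYC low cells (-0.20 to 0.02), and neither passed. Without replicate 1 of MYC low cells at 10 µM, the value in MYC low cells was -0.15 and passed (adjusted p = 0.0308).

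Rragc encodes RagC, which pairs with RagA or RagB, and was the member with the highest level per kb. MYC high libraries stood at 1663, 1573 and 1653 normalized counts at 10 µM, against 2050 and 2131 at 200 µM. MYC low libraries stood at 2169, 2264 and 2190 at 10 µM, against 2338, 2335 and 2325 at 200 µM. The 4 groups did not overlap, and the MYC high libraries at 10 µM lay well apart at the low end. Rragc fell by 0.36 on the log2 scale at 10 µM in MYC high cells (SE 0.0405, adjusted p = 4.37e-10). The difference in MYC low cells was -0.08 (95% interval -0.15 to -0.01, adjusted p = 0.0573). That value lay at the threshold: it passed with TMM scaling (adjusted p = 0.029), with edgeR (0.0215), when only the groups compared were fitted (0.0246) and without replicate 2 or replicate 3 of MYC high cells at 10 µM (0.0375 and 0.049) or replicate 2 of MYC low cells at 10 µM (0.0451).

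The methionine response of Rragc differed between the MYC states by -0.28 (SE 0.0543, adjusted p = 3.16e-05). MYC high cells held less Rragc than MYC low cells in both media, by -0.44 at 10 µM (SE 0.0362, adjusted p = 1.83e-13) and by -0.16 at 200 µM (SE 0.0405, adjusted p = 0.000673). The gene 4930535I16Rik, for which no value was used here, covers 7.9% of its exon bases on the opposite strand.

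Rragd, the alternative partner in the heterodimer and a known target of the MiT/TFE factors, was at the edge of detection. At 10 µM it had 3, 0 and 0 reads in MYC high libraries and 3, 0 and 0 in MYC low libraries. At 200 µM it had 2 and 3 reads in MYC high and 6, 6 and 4 in MYC low libraries. A library with 0 reads allows up to 3 reads, or 2.65 to 3.43 normalized counts. Pooled over libraries and scaled, the ratio of 10 to 200 µM was 0.173 in MYC low cells (3 against 16 reads, exact 95% counting interval 0.0323 to 0.604) and 0.369 in MYC high cells (3 against 5 reads, 0.0573 to 1.90). Between MYC high and MYC low cells the ratio was 1.11 at 10 µM (3 against 3 reads, 0.149 to 8.32) and 0.522 at 200 µM (5 against 16 reads, 0.150 to 1.49). These intervals cover counting error only, not the spread between libraries. Rragd made up at most 0.153% of the summed Rragc and Rragd level per kb in any library.

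Flcn showed the largest range over the groups of all tested members. MYC high libraries stood at 632, 672 and 605 normalized counts at 10 µM, against 1241 and 1275 at 200 µM. MYC low libraries stood at 780, 764 and 818 at 10 µM, against 890, 912 and 950 at 200 µM. The 4 groups did not overlap, and MYC high cells held both the highest level, at 200 µM, and the lowest, at 10 µM. The log2 difference of 10 against 200 µM was -0.98 in MYC high cells (SE 0.0554, adjusted p = 2.37e-18) and -0.22 in MYC low cells (SE 0.0495, adjusted p = 0.000222). These responses differed by -0.76 (SE 0.0743, adjusted p = 3.58e-11). For scale, 22.8% of all tested genes had a difference at least as large as that of Flcn in MYC high cells, and 21.9% an interaction at least as large.

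The MYC comparison of Flcn was opposite in the media. In MYC high compared with MYC low cells it was lower at 10 µM, by -0.31 (SE 0.0495, adjusted p = 9.83e-07), and at 200 µM higher, by 0.46 (SE 0.0554, adjusted p = 2.83e-09). None of these calls was lost under any alternative tried. Among 9737 other genes with a mean of at least 100, those whose log2 values over the 11 libraries ran closest to Flcn, after centring, were Tmed9, AI837181 and Spag9, with root mean square differences of 0.0518, 0.0544 and 0.0565 log2 units. Tmed9, a cargo receptor of the early secretory pathway, averaged 1063 ± 20.2 normalized counts in MYC high cells, against 1303 ± 30.4 in the MYC low ones at 10 µM. Its averages at 200 µM were 2105 ± 41.8 in MYC high cells, against 1539 ± 61.7 in the MYC low ones (SD).

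The partners of folliculin were lower at 10 µM as well. Fnip1 averaged 1017 ± 59.9 normalized counts at 10 µM, against 1995 ± 29.9 at 200 µM in MYC high cells (SD, n = 3 and 2). In MYC low cells it ranged 1247 to 1276 at 10 µM, against 1911 to 1918 at 200 µM. Fnip1 fell by 0.97 in MYC high cells (SE 0.0463, adjusted p = 1.35e-20) and by 0.60 in MYC low cells (SE 0.0414, adjusted p = 3.22e-15) on the log2 scale, and Fnip2 fell by 0.61 and 0.40. Both were lower in MYC high than in MYC low cells at 10 µM, by -0.32 for Fnip1 and -0.33 for Fnip2, and neither passed at 200 µM, where the values were 0.06 and -0.12.

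**Figure D2:**
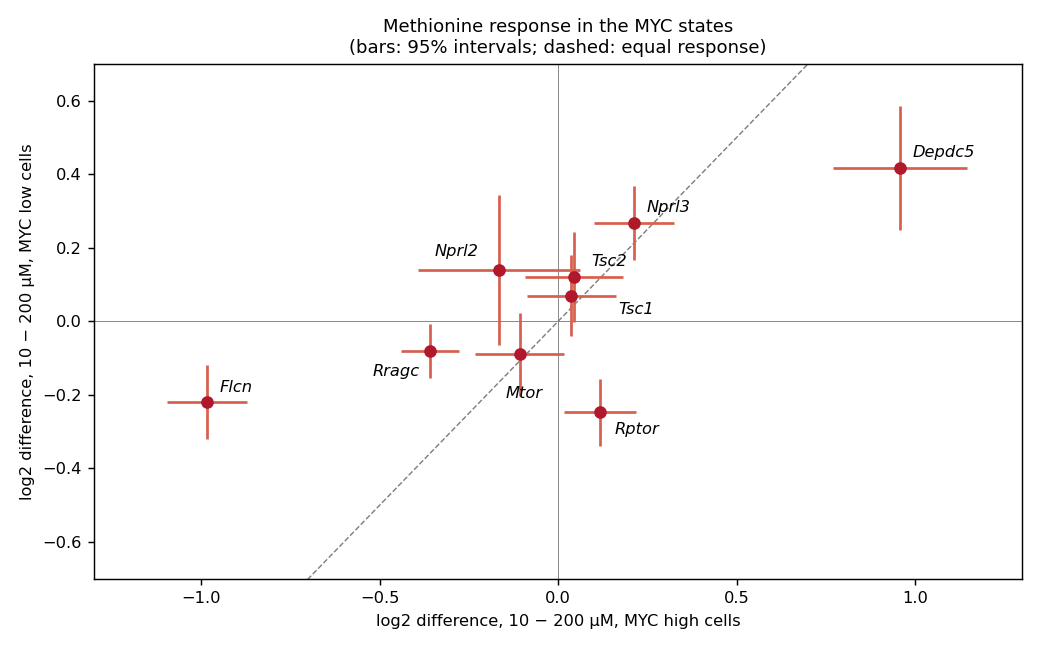
Log2 difference of 10 against 200 µM methionine in MYC high cells (x axis) and in MYC low cells (y axis) for the 9 tested regulators, with 95% intervals from limma and a dashed line of equal response. No library enters both axes, and Flcn (-0.98 and -0.22) and Depdc5 (0.96 and 0.42) lie farthest from 0.

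Depdc5 encodes the GATOR1 subunit that contacts the Rag GTPases. MYC high libraries held 373, 446 and 384 normalized counts at 10 µM, against 198 and 213 at 200 µM. MYC low libraries held 342, 407 and 377 at 10 µM, against 295, 296 and 252 at 200 µM. All libraries at 10 µM lay above all libraries at 200 µM, and at 10 µM the MYC states overlapped. Depdc5 rose by a log2 difference of 0.96 in MYC high cells (SE 0.0931, adjusted p = 1.17e-11) and by 0.42 in MYC low cells (SE 0.0833, adjusted p = 4.61e-05). The response was larger in MYC high cells by 0.54 (SE 0.125, adjusted p = 0.000322). MYC high cells held less Depdc5 than MYC low cells at 200 µM (log2 difference -0.45, SE 0.0931, adjusted p = 5.49e-05). At 10 µM the difference was 0.09 (95% interval -0.08 to 0.26), which did not pass.

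Nprl3, a second GATOR1 subunit, held 794, 803 and 782 normalized counts at 10 µM in MYC high cells, against 696 and 673 at 200 µM. MYC low libraries held 724, 736 and 748 at 10 µM, against 622, 615 and 597 at 200 µM. The 4 groups did not overlap, with MYC high above MYC low in each medium. Nprl3 rose at 10 µM by 0.21 in MYC high cells (SE 0.0553, adjusted p = 0.000789) and by 0.27 in MYC low cells (SE 0.0494, adjusted p = 1.48e-05). The interaction was -0.06 (95% interval -0.21 to 0.10, adjusted p = 0.54). At 200 µM MYC high exceeded MYC low by 0.16 (SE 0.0553, adjusted p = 0.00875), a call lost without replicate 2 of MYC high cells at 200 µM (adjusted p = 0.0784) and with scaling by total reads (0.213). At 10 µM the difference was 0.11 (adjusted p = 0.0516), and it passed with TMM scaling (0.0483), edgeR (0.0449), the filter at 50 (0.0483) and no trend (0.0188). Mpg, at a mean of 363 normalized counts, covers 17.7% of its exon bases on the opposite strand, and without a stated strand setting their reads cannot be told apart.

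Nprl2, whose product carries the catalytic arginine of GATOR1, passed in none of the 5 comparisons. Its libraries held 163, 158 and 149 normalized counts in MYC high cells and 183, 174 and 183 in the MYC low ones at 10 µM. At 200 µM they held 186 and 165 in MYC high cells and 150, 172 and 168 in the MYC low ones. At 10 µM the MYC high libraries lay below the MYC low ones, and at 200 µM the groups overlapped. Between MYC high and MYC low cells the log2 difference was -0.20 at 10 µM (95% interval -0.40 to 0.00, adjusted p = 0.0733) and 0.10 at 200 µM (-0.12 to 0.33). The value at 10 µM passed with scaling by total reads (adjusted p = 0.0216) and with no trend (0.0249). For 10 against 200 µM it was -0.16 in MYC high cells (95% interval -0.39 to 0.06) and 0.14 in MYC low cells (-0.06 to 0.34). The interaction of -0.30 (95% interval -0.61 to 0.00, adjusted p = 0.0792) passed without replicate 3 of MYC high cells at 200 µM (adjusted p = 0.0498), and with no trend (0.0287). Of the GATOR1 genes, Depdc5 and Nprl3 thus rose at 10 µM in both MYC states, and for Nprl2 these intervals leave room for a change of either sign.

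Tsc1, which encodes hamartin, stood at 770, 740 and 899 normalized counts in MYC high cells and 893, 949 and 914 in the MYC low ones at 10 µM. At 200 µM it stood at 777 and 783 in MYC high cells and 896, 857 and 874 in the MYC low ones. The groups overlapped at 10 µM through replicate 3 of MYC high cells, at 899, and not at 200 µM. The log2 difference between MYC high and MYC low cells was -0.20 at 10 µM (SE 0.0544, adjusted p = 0.00148) and -0.17 at 200 µM (SE 0.0608, adjusted p = 0.0141). The call at 200 µM was lost without replicate 2 of MYC high cells (adjusted p = 0.0631) and with no trend (0.0746). Between 10 and 200 µM, Tsc1 differed by 0.04 in MYC high cells (95% interval -0.09 to 0.16) and 0.07 in MYC low cells (-0.04 to 0.18), and neither passed.

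Tsc2 encodes tuberin, whose GTPase-activating domain acts on Rheb. Its libraries held 455, 444 and 440 normalized counts in MYC high cells and 569, 570 and 581 in the MYC low ones at 10 µM. At 200 µM they held 451 and 416 in MYC high cells and 567, 517 and 500 in the MYC low ones. Every MYC high library lay below every MYC low library, across both media. The log2 difference was -0.36 at 10 µM (SE 0.0605, adjusted p = 1.95e-06) and -0.28 at 200 µM (SE 0.0676, adjusted p = 0.000312). With methionine it differed by 0.04 in MYC high cells (95% interval -0.09 to 0.18) and 0.12 in MYC low cells (0.00 to 0.24). In MYC low cells that value passed without replicate 1 at 200 µM (adjusted p = 0.0254) and with scaling by total reads (0.0457). Pkd1, at a mean of 897 normalized counts, covers 7.2% of its exon bases on the opposite strand.

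Set by MYC state, 5 of 9 members were lower in MYC high than in MYC low cells at 10 µM, none was higher and 4 did not pass, beside 71.5% of all genes called, 35.7% higher and 35.8% lower. At 200 µM 6 were lower, 2 were higher and 1 did not pass, beside 74.4% of all genes called, 36.8% higher and 37.6% lower. The median log2 difference of the members was -0.20 at 10 µM and -0.16 at 200 µM, beside 0.0015 and -0.0031 over all genes. The size factors place the all-gene median near 0 by design, so it is no independent background. With scaling by total reads the all-gene median was -0.0557 at 10 µM and -0.0886 at 200 µM. Mtor, Rragc, Tsc1 and Tsc2 were lower in MYC high cells in both media, and Flcn was called in opposite directions. These 5 of 9 members called in both media (55.6%) stand beside 57% of all genes. Of the genes called in both, 82.5% had the same direction, against 80% of the members. The share of mitochondrial reads also followed the MYC state, at 0.793% to 0.914% in MYC high libraries, against 1.52% to 1.58% in the MYC low ones at 10 µM, and 0.839% to 0.870% in MYC high libraries, against 1.67% to 1.74% in the MYC low ones at 200 µM. The sum of 4 fetal liver markers, nearly all Afp, was 337.2 to 365.7 in MYC high libraries, against 118.4 to 146.4 in the MYC low ones at 10 µM, and 149.6 to 162.2 in MYC high libraries, against 78.0 to 106.4 in the MYC low ones at 200 µM. The part of these in the members' differences was not tested. With TMM scaling the split at 10 µM was 1 higher and 5 lower. With scaling by total reads that at 200 µM was 1 higher and 6 lower. Total-read scaling also added Rptor (-0.14, limma adjusted p = 0.00639) and Nprl2 (-0.26, 0.0216) to the lower members at 10 µM. Without the trend, Mtor (limma adjusted p = 0.069) and Tsc1 (0.0746) no longer passed at 200 µM. The interaction passed for 4 of 9 members, above 0 for Rptor and Depdc5 and below 0 for Rragc and Flcn, beside 60.4% of all genes, 31.0% above and 29.4% below 0. It did not pass for Mtor (-0.02, 95% interval -0.19 to 0.15), Tsc1 (-0.03, -0.20 to 0.13) or Tsc2 (-0.08, -0.26 to 0.11).

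**Figure D3:**
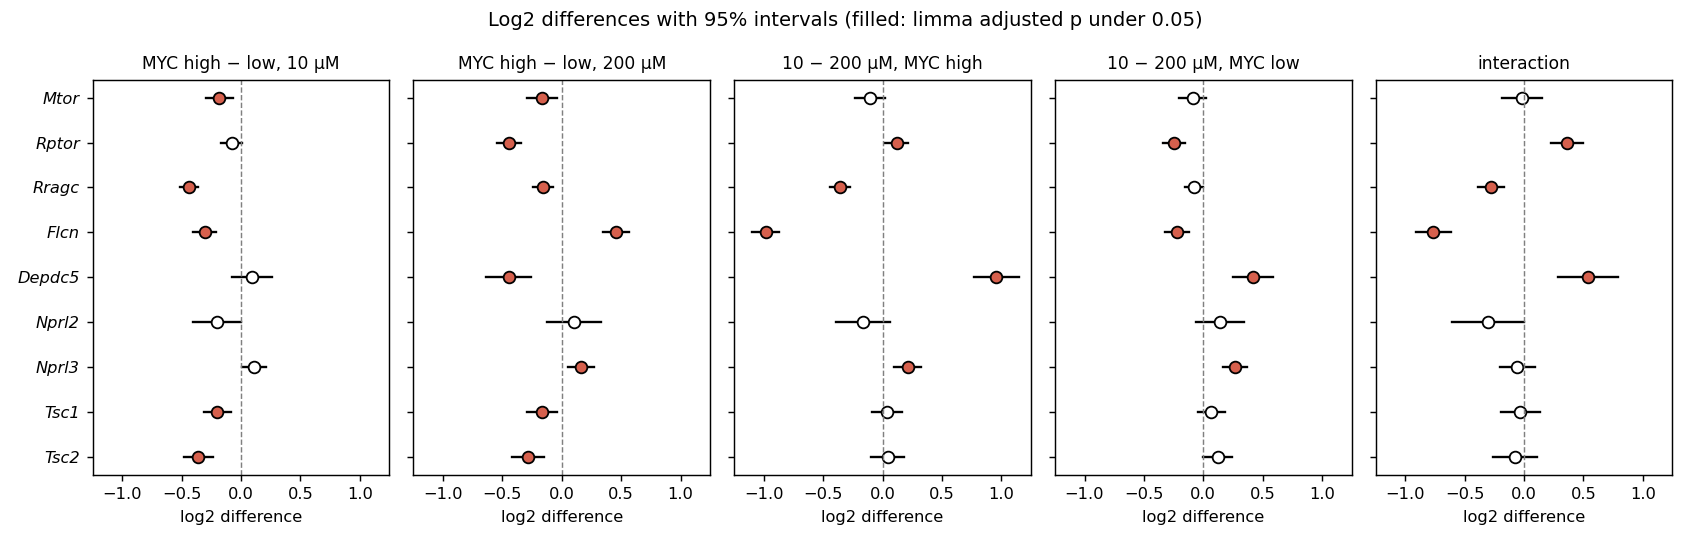
Log2 differences with 95% intervals (limma) of the 9 tested regulators in the comparisons of MYC high with MYC low cells and of 10 with 200 µM methionine, and in their interaction. Filled points have an adjusted p under 0.05, and Flcn spans the widest range, between -0.98 for methionine in MYC high cells and 0.46 for MYC state at 200 µM.

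The rest of the pathway was taken from lists of 60 genes, of which 57 were tested. The lists were written from general knowledge, with earlier results of these data known. At 10 against 200 µM, 27 rose, 21 fell and 9 did not pass in MYC high cells. For MYC low cells these counts were 17, 22 and 18. Between MYC high and MYC low cells, 26 were higher, 18 lower and 13 not passed at 10 µM, and 22, 18 and 17 at 200 µM. For methionine, 84.2% were called in MYC high cells, beside 75.8% of all genes. The MYC low share was 68.4%, beside 59.4%. For MYC state 77.2% were called at 10 µM, beside 71.5% of all genes. At 200 µM the share of 70.2% lay below the 74.4% of all genes. Of all genes, 37.9% rose and 37.9% fell at 10 µM in MYC high cells, and 29.4% and 29.9% in the MYC low ones. By MYC state, 35.7% of all genes were higher and 35.8% lower at 10 µM, and 36.8% and 37.6% at 200 µM. These differences in share were not tested. The median log2 difference of the 57 genes for methionine was 0.11 in MYC high cells and -0.02 in the MYC low ones. In MYC high cells the list medians were -0.90 for the other TSC branch genes, -0.79 for the FLCN partners, -0.47 for KICSTOR, -0.10 for substrates and effectors, -0.02 for other mTORC1 subunits, 0.15 for the AMPK branch, 0.21 for the lysosomal platform, 0.36 for GATOR2, 0.37 for the sensors, 0.41 for the MiT/TFE factors and 0.52 for mTORC2. In MYC low cells they were -0.38 for the other TSC branch genes, -0.50 for the FLCN partners, -0.36 for KICSTOR, -0.11 for substrates and effectors, -0.41 for other mTORC1 subunits, 0.23 for the AMPK branch, -0.01 for the lysosomal platform, -0.07 for GATOR2, 0.08 for the sensors, 0.36 for the MiT/TFE factors and 0.04 for mTORC2.

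Beside Mtor and Rptor, 1 of the 3 other mTORC1 subunits rose and 1 fell at 10 µM in MYC high cells, and in MYC low cells 1 rose and 2 fell. Among all genes 37.9% rose and 37.9% fell in MYC high cells, and 29.4% and 29.9% in MYC low cells. Akt1s1, the raptor-binding inhibitor PRAS40, ranged 1066 to 1078 normalized counts at 10 µM, against 3776 and 3795 at 200 µM in MYC high cells. It fell there by 1.82 on the log2 scale (SE 0.0425, adjusted p = 2.60e-30) and by 0.41 in MYC low cells. Deptor, the other inhibitory subunit, averaged 330 ± 14.0 at 10 µM, against 187 ± 1.09 at 200 µM in MYC high cells, and 55.5 ± 5.26 at 10 µM, against 127 ± 14.0 at 200 µM in MYC low cells. It rose by 0.82 in MYC high cells and fell by 1.18 in MYC low cells, so the inhibitors moved in opposite directions in MYC high cells.

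Around Rragc, the 8 other genes of the lysosomal platform (RagA and RagB, the Ragulator subunits and the arginine sensor SLC38A9) split into 4 that rose, 1 that fell and 3 not passed at 10 µM in MYC high cells, and 3, 2 and 3 in MYC low cells. The all-gene shares were 37.9% risen and 37.9% fallen in MYC high cells, and 29.4% and 29.9% in MYC low cells. Lamtor2, a Ragulator subunit, averaged 795 ± 76.1 normalized counts at 10 µM, against 441 ± 6.76 at 200 µM in MYC high cells, a log2 difference of 0.84 (SE 0.0637, adjusted p = 1.17e-14). Rraga, which encodes RagA, exceeded its MYC low level in MYC high cells at 10 µM by 0.46 (adjusted p = 1.21e-10), where Rragc was lower by -0.44.

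Upstream of GATOR1, 3 of 5 GATOR2 genes rose and 1 fell at 10 µM in MYC high cells, and 1 rose and 2 fell in MYC low cells. Sec13, shared with the nuclear pore and COPII coats, fell by 0.73 in MYC high cells (adjusted p = 4.03e-15). Of the 4 KICSTOR genes, whose complex tethers GATOR1 to lysosomes, 3 fell in MYC high cells, 2 fell in the MYC low ones and none rose. Beside the GATOR2 and KICSTOR counts, 37.9% of all genes rose and 37.9% fell in MYC high cells. In MYC low cells 29.4% of all genes rose and 29.9% fell. Itfg2 averaged 136 ± 14.7 normalized counts at 10 µM, against 665 ± 5.27 at 200 µM in MYC high cells, and 114 ± 8.79 against 232 ± 12.3 in MYC low cells. It fell by 2.28 (SE 0.107, adjusted p = 8.73e-21) and by 1.02 (SE 0.0958, adjusted p = 1.20e-11) on the log2 scale.

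Of 8 sensor genes, 5 rose and 3 fell at 10 µM in MYC high cells, where 75.8% of all genes were called. In MYC low cells 3 rose, 2 fell and 3 did not pass, beside 59.4% of all genes called. Castor1, an arginine sensor, averaged 476 ± 33.1 normalized counts at 10 µM, against 155 ± 18.2 at 200 µM in MYC high cells, a log2 difference of 1.62 (SE 0.0976, adjusted p = 1.94e-17). Sesn2, a leucine sensor, averaged 691 ± 20.2 at 10 µM, against 1521 ± 9.67 at 200 µM there, a difference of -1.14 (SE 0.0508, adjusted p = 1.88e-21). Sesn3, a further sestrin, was lower in MYC high than in MYC low cells in both media, by -1.70 at 10 µM and -1.87 at 200 µM. In the annotation used, the S-adenosylmethionine sensor SAMTOR is listed as Bmt2, which averaged 991 ± 3.60 normalized counts in MYC high cells, against 938 ± 30.5 in the MYC low ones at 10 µM. At 200 µM Bmt2 averaged 837 ± 19.9 in MYC high cells, against 1006 ± 32.6 in the MYC low ones. Bmt2 rose at 10 µM by a log2 difference of 0.24 in MYC high cells (SE 0.0507, limma adjusted p = 5.05e-05). In MYC low cells its difference was -0.10 (adjusted p = 0.0535), and its interaction was 0.35 (SE 0.0680, adjusted p = 3.99e-05).

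Beside Tsc1 and Tsc2, 4 of the 5 other TSC branch genes fell and none rose at 10 µM in MYC high cells. There 37.9% of all genes fell and 37.9% rose. In MYC low cells 3 fell and 1 rose, beside 29.9% and 29.4% of all genes. Rhebl1, a Rheb paralog, fell by 1.39 in MYC high cells (SE 0.183, adjusted p = 1.52e-08) and by 1.97 in MYC low cells (SE 0.164, adjusted p = 4.89e-13) on the log2 scale, and in the annotation it shares 17.99% of its exon bases with Dhh on the same strand. Rheb, the GTPase that TSC inactivates, averaged 1710 ± 83.8 normalized counts at 10 µM, against 3509 ± 56.5 at 200 µM in MYC high cells, a log2 difference of -1.04 (SE 0.0408, adjusted p = 3.62e-23). Ddit4l, a paralog of Ddit4, was lower in MYC high than in MYC low cells at 10 µM, with a log2 difference of -2.23 (SE 0.150, adjusted p = 5.19e-16). Ddit4, the stress-induced mTORC1 inhibitor REDD1, was more abundant in MYC high cells than in the MYC low ones, by 1.95 at 10 µM and 1.48 at 200 µM. At 200 µM it averaged 5346 ± 97.3 in MYC high cells and 1919 ± 106 in MYC low cells, where Tsc1 and Tsc2 were lower in MYC high cells.

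Of 10 substrates and effectors, 4 rose and 5 fell at 10 µM in MYC high cells, and 3 rose and 5 fell in MYC low cells. Among all genes 37.9% rose and 37.9% fell in MYC high cells, and 29.4% and 29.9% in MYC low cells. Eif4ebp1, the translation repressor that mTORC1 switches off, averaged 2677 ± 105 normalized counts in MYC high cells and 1057 ± 34.9 in the MYC low ones at 10 µM, a log2 difference of 1.34 (SE 0.0366, adjusted p = 3.34e-28). Its log2 difference of 10 against 200 µM was -0.61 in MYC high cells and -1.50 in MYC low cells. Of the MiT/TFE factors, which folliculin helps to keep in the cytoplasm, Tfeb rose at 10 µM by 0.70 in MYC high cells and 0.79 in the MYC low ones, while Mitf and Tfec were too low to be tested. Tfe3 stood at 0.12 in MYC high cells (adjusted p = 0.038) and at -0.07 in the MYC low ones (adjusted p = 0.246). Its call in MYC high cells was lost with no filter (limma adjusted p = 0.0639), with DESeq2 (0.0864), with no trend (0.0606), with a fit of the compared groups alone (0.0537), and without replicate 2 or replicate 3 of MYC high cells at 200 µM (0.161 and 0.0674) or at 10 µM (0.0701 and 0.101). Of the 7 AMPK branch genes, which act on Tsc2 and Rptor proteins, 5 rose and 1 fell in MYC high cells, and 4 rose and 1 fell in MYC low cells. Beside these stand 37.9% of all genes risen and 37.9% fallen in MYC high cells, and 29.4% and 29.9% in MYC low cells. Prkaa2, a catalytic subunit, rose by 1.10 and Prkab1, a regulatory subunit, fell by 0.74 on the log2 scale in MYC high cells. All 3 tested mTORC2 genes rose at 10 µM in MYC high cells, where 37.9% of all genes rose. In MYC low cells none rose and 1 fell, beside 29.4% and 29.9% of all genes. The largest rise was that of Prr5, by 1.60 (SE 0.176, adjusted p = 2.24e-10), and Rictor fell by 0.38 in MYC low cells.

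**Figure D4:**
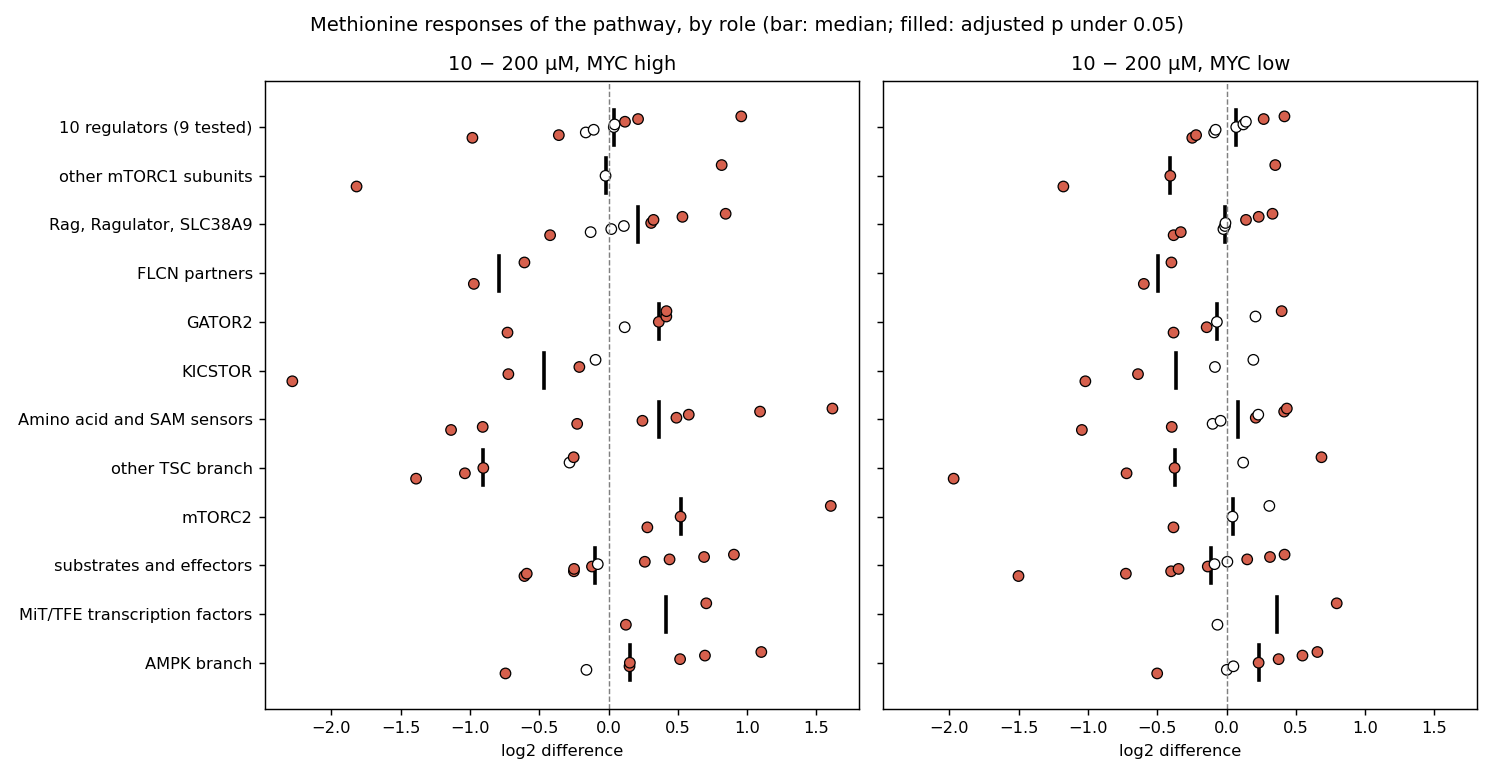
Log2 difference of 10 against 200 µM methionine (x axis) for each tested gene of the mTORC1 pathway by role (y axis), in MYC high cells on the left and MYC low cells on the right. Points are genes, filled where the limma adjusted p was under 0.05, bars are list medians, and the FLCN partners Fnip1 and Fnip2 lie below 0 in both MYC states.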

How the data were processed

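RNA was extracted with a Qiagen kit and libraries made with NEBNext Ultra II reagents, per the labels' protocols. Tools named by the submitters' processing notes are STAR, HTSeq, DESeq2, fastp, FastQC and SAMtools, with the build GRCm39. Not given in the sources used here were versions, annotation release and strand setting. The deposited signal values are normalized counts per gene. Every value came out as whole reads within 0.001 (100%) once multiplied by 1 size factor per library (0.875 to 1.13), and columns of other samples numbered 0. Symbols (52083 of 55416 identifiers), transcript lengths and exon overlaps came from GENCODE M21, of the earlier build GRCm38, so no gene coordinates of it are printed. Promoters are RefSeq's.

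Log2 of the value plus 1, which understates changes of low genes, was fitted over 11 libraries in R 4.3.3 (limma 3.58.1), using 1 mean for every group, empirical Bayes with trend (7 residual and 29.0 prior degrees of freedom) and adjustment over 12909 genes. Pooling the spread assumes that the group of 2 libraries varies like the others. SE is limma's. Alternatives were pseudocounts of 0.5 and 5, no filter or one at 50, TMM and total-read scaling, edgeR 4.0.16, DESeq2 1.42.0 on recovered reads, no trend, a replicate block, only the groups compared, and each library left out. Libraries of a group differed by more than counting noise (chi-square per gene 1.40 to 2.68), so none was merged. The fitting script was tested on simulated data. Genes named are the members, Myc, up to 2 genes per pathway list and comparison with the largest called difference, and the 3 genes closest to the member of largest range (mean at least 100). The values of 1 gene that this rule names are not reported here. Bmt2, Mitf and Tfec were named after their values were seen. The members and lists were chosen with earlier results of these data known.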

Additional observations from a re-analysis of the deposited data

Results flagged for a closer look

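The response to 10 against 200 µM methionine differed between MYC high and MYC low cells for 4 members, by the interaction test in limma. The interaction, which is the response in MYC high cells minus that in MYC low cells on the log2 scale, was 0.37 for Rptor, -0.28 for Rragc, 0.54 for Depdc5 and -0.76 for Flcn. Rptor rose in MYC high and fell in MYC low cells, Depdc5 rose in both and Flcn fell in both, and Rragc passed in MYC high cells only. The Rptor rise in MYC high cells, of 0.12, lost its call under several alternatives, among them DESeq2 (adjusted p = 0.0774).

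The same test passed for further pathway genes named by rule. Above 0 were Deptor at 1.99, Lamtor2 at 0.70, Rragb at 0.49, Wdr59 at 0.80, Castor1 at 1.18, Castor2 at 0.88, Prr5 at 1.295, Rictor at 0.66, Maf1 at 1.09, Eif4ebp1 at 0.89, Tfe3 at 0.19 and Prkaa2 at 0.73. Below 0 were Akt1s1 at -1.41, Fnip1 at -0.38, Sec13 at -0.59, Itfg2 at -1.26, Ddit4l at -1.59, Rheb at -0.66 and Prkab1 at -0.75. The sign of an interaction does not give the direction of either response. In MYC high and MYC low cells, these were -0.61 and -1.50 for Eif4ebp1, 1.62 and 0.43 for Castor1, and 0.82 and -1.18 for Deptor. The call of Tfe3 was lost with DESeq2 (adjusted p = 0.0656) and without replicate 2 of MYC high cells at 200 µM (0.078), replicate 1 of MYC low cells at 200 µM (0.0877) or replicate 1 of MYC low cells at 10 µM (0.0741). An interaction was called for 60.4% of all genes, so passing it does not set these genes apart.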

How the results depend on the processing

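The number of members called stayed within 1.5 times its value under all alternatives, and so did the number of genes called. With 1 library left out, 4 to 5 members were called for methionine in MYC high cells, 4 to 5 in MYC low cells, 4 to 5 for the interaction, 4 to 6 for MYC state at 10 µM and 6 to 8 at 200 µM. The calls of Flcn, Depdc5 and Tsc2, and those of Rragc, were kept under all alternatives. Of the single values of members, 936 kept their direction and side of the threshold, 20 newly passed, 16 no longer passed and 9 changed sign, all of the last being uncalled. For the Mtor interaction, -0.02, the value was 0.0075 with TMM scaling, 0.0102 with total reads and 0.0064 with edgeR, and ran from -0.0757 to 0.042 with 1 library left out. The methionine difference in MYC high cells ran from -0.0467 to 0.0934 for Tsc1 and from -0.0157 to 0.102 for Tsc2, and the Tsc1 interaction from -0.116 to 0.024, with 1 library left out. The Myc difference at 10 µM, -0.005, was 0.0036 with edgeR and 0.0056 with DESeq2, and ran from -0.0696 to 0.0936. The causes were not tested. No scaling moved the median gene by over 0.1.

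Replicate numbers did not pair the libraries: deviations of same-numbered libraries correlated at -0.049 to 0.0257, and 2 of 11 libraries lay closest to their own number. With a replicate block, 5 members were called for MYC state at 10 µM, 7 at 200 µM, 4 for the interaction, and for methionine 6 in MYC high cells and 4 in the MYC low ones. Under the block Mtor was at -0.13 for MYC state at 200 µM (adjusted p = 0.0514) and at -0.14 for methionine in MYC high cells (adjusted p = 0.0402). Depth limits Rragd, and the group of 2 libraries limits every comparison at 200 µM in MYC high cells.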
